A study of Mus musculus with 3 samples.

Results

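The insulin-like growth factor (IGF) axis was followed through 10 genes, namely the ligands Igf1 and Igf2, the receptors Igf1r and Igf2r, and the binding proteins Igfbp2, Igfbp3, Igfbp4, Igfbp5, Igfbp6 and Igfbp7. The genes were chosen by symbol, and each is listed once in every count file, so that they make up 10 of the 23238 symbols. The cells were c2c12, a line of mouse myoblasts that fuse into myotubes when serum is withdrawn. All cells received myogenic induction medium with 2% horse serum for 2 days, and the groups differed in the substrate. These substrates were the tissue culture plate (TCP), a hydrogel of 15% methacrylated gelatin (GelMA), and the same hydrogel with 1% of poly(sodium-4-styrenesulfonate), a sulfonated polymer used to mimic heparin (GelMA-PSS). There was 1 library per substrate, so the differences below lack replicates and are given without p-values. Differences between cultures and differences between substrates cannot be told apart.

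IGF1 and IGF2 are secreted peptides that act mainly through the tyrosine kinase receptor encoded by Igf1r, which signals through IRS adaptors, PI3K and Akt. In myoblasts this pathway is known for promoting both proliferation and differentiation, and IGF2 is made by differentiating muscle cells themselves. The product of Igf2r carries IGF2 to the lysosome and has no kinase. The binding proteins hold IGFs in the medium and matrix, where they can restrain or prolong their action, and some of them bind heparin and related glycosaminoglycans. Igfbp7 encodes a more distant relative with low affinity for IGFs.

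The total counts ran from 87071144 to 192171443 per library. Levels are given as CPM, the count of a gene relative to the library total after TMM scaling. Their intervals (Wilson, 95%) cover counting error only. Of 10 skeletal muscle markers, 9 were listed and all 9 exceeded a CPM of 1, with a summed CPM of 26244 on TCP, 19514 on GelMA and 16611 on GelMA-PSS. The embryonic myosin gene Myh3 carried much of the difference in that sum, with a CPM of 10182, 6355 and 3037 in the same order, and of the 9 markers 3 were lower and 3 higher on GelMA-PSS than in both controls. Endothelial, macrophage and adipocyte lists of 4 genes had summed CPMs of at most 0.905, 1.86 and 9.57, with the leukocyte gene Ptprc at no more than 0.0221 and the adipocyte gene Adipoq at no more than 0.0657. An osteoblast list reached 31.0, with Ibsp at 0 in all 3 libraries. Most of that sum was Runx2, which had a CPM of 25.2 on TCP, 29.3 on GelMA and 20.7 on GelMA-PSS. Likewise, Pparg made up most of the adipocyte sum, with 8.48, 6.69 and 9.54 in the same order. Cd68 made up most of the macrophage sum, with 1.53, 1.71 and 1.37. All 4 fibroblast-associated markers were counted, with a summed CPM of 306 on TCP, 449 on GelMA and 1083 on GelMA-PSS. Most of that sum was Ly6a, which had a CPM of 296, 431 and 1071 in the same order, whereas Pdgfra had 6.79, 10.0 and 7.44. In bulk RNA, more cells of a type and more RNA per cell cannot be told apart.

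Across the axis, the binding protein gene Igfbp2 was the member that stood highest on GelMA-PSS relative to both other substrates, at 2.49-fold the GelMA level and 4.16-fold the TCP level. The receptor genes Igf1r and Igf2r were between 1.91-fold and 2.13-fold below their level on either control. Igfbp3 and Igf1 were lowest on GelMA-PSS and highest on TCP, and Igf2 and Igfbp4 stood close to their GelMA levels. A gene was called when its log2 ratio of CPM + 1 passed 2-fold. The study's methods state that fold on FPKM values together with a p-value limit, and its Results state 1.5-fold. The genes tested were the 13169 with a CPM of at least 1 in a library. All 10 members met this limit.

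Against both controls at once, 1 member was called higher, Igfbp2, beside 1.37% of all genes tested, and 0 were called lower, beside 1.16%. Against GelMA alone, 1 member was called higher (Igfbp2), beside 1.77% of all genes, and 1 lower (Igf1r), beside 2.33%. Against TCP alone, 1 member was called higher (Igfbp2), beside 3.72%, and 1 lower (Igfbp3), beside 3.13%. Between GelMA and TCP, 0 members were called higher and 0 lower, beside 0.706% and 0.296% of all genes. At 1.5-fold, 4 members passed against GelMA and 4 against TCP, beside 21.8% and 24.7% of all genes in either direction, and 1 passed between the controls, beside 5.62%. Counting any size, 5 members were higher and 5 lower on GelMA-PSS than in both controls, beside 45.3% and 39.3% of all genes, so that the axis as a list was split evenly. The comparisons of GelMA-PSS with GelMA and with TCP share a library. The median log2 ratio over the members was -0.15 against GelMA and -0.03 against TCP, where all genes tested had medians of 0.03 and 0.04. For GelMA against TCP it was 0.09, beside -0.01 for all genes. The members' medians thus stayed near 0 while single members spread from -1.13 to 2.05.

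**Figure D1:**
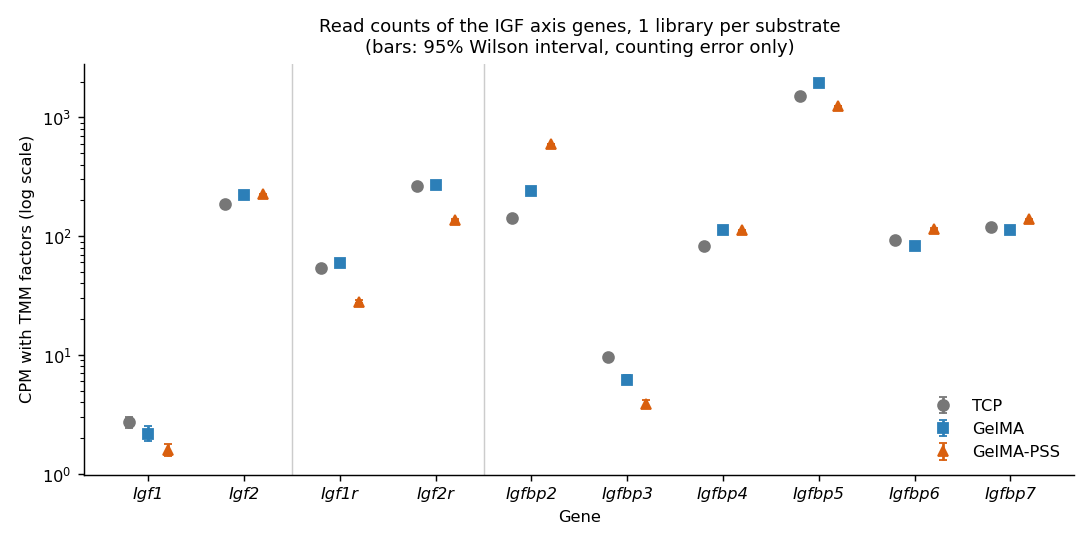
CPM with TMM factors (log scale) of the 10 IGF axis genes in the TCP, GelMA and GelMA-PSS libraries, with bars for the 95% Wilson interval of the count. Igfbp5 lies highest in every library, between 1243 and 1959, Igf1 lies lowest, and Igfbp2 climbs from 143 on TCP to 596 on GelMA-PSS.

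Igf1 lies on chromosome 10 from 87858265 to 87937042 of GRCm38, and was the least abundant member, with 329 counts on TCP, 198 on GelMA and 286 on GelMA-PSS. Those counts correspond to a CPM of 2.70 (interval 2.43 to 3.01), 2.18 (1.90 to 2.50) and 1.58 (1.41 to 1.77). The intervals of the controls overlap each other, and the GelMA-PSS interval lies below both. The GelMA level was itself 0.806 times that of TCP, with a counting interval of 0.673 to 0.965 that lies below 1. The GelMA-PSS level was 0.725 times that of GelMA, with a counting interval of 0.602 to 0.873, and 0.584 times that of TCP, with an interval of 0.497 to 0.687.

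Igf2 lies on chromosome 7 from 142650766 to 142666816 on the minus strand. Its CPM was 186 on TCP, 219.9 on GelMA and 224.6 on GelMA-PSS, so that both hydrogels stood above the plate and lay near each other. The 1.02-fold difference between the hydrogels had a counting interval of 1.00 to 1.04, and the difference between GelMA-PSS and TCP was 1.21-fold (1.19 to 1.23). Per transcript length, in TPM, which divides the count by transcript length, Igf2 exceeded Igf1 33.3-fold on TCP, 49.0-fold on GelMA and 69.0-fold on GelMA-PSS. The ligand transcripts were thus almost entirely Igf2 in every library. The size of these folds depends on the Igf1 transcript used, which has 2292 bases here, while the longest has 7052. They also carry any dependence of the counts on transcript length, which is described further on.

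H19, the imprinted noncoding RNA gene 72622 bases from Igf2, was singled out after its values were seen, since it had the highest CPM of all genes tested in each library. It took 1.56% of the counts on TCP, 1.54% on GelMA and 1.73% on GelMA-PSS. Its TPM exceeded that of Igf2 171-fold, 138-fold and 169-fold in the same order.

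The receptor gene Igf1r lies on chromosome 7 from 67952827 to 68233668 and has 21 exons in the transcript used here. Its CPM was 53.6 on TCP, 59.5 on GelMA and 28.0 on GelMA-PSS. For Igf2r, on chromosome 17 from 12682406 to 12769664 with 48 exons, the CPM was 263 on TCP, 269.5 on GelMA and 137 on GelMA-PSS. In both genes the controls lay close together and the GelMA-PSS library stood apart below them. For Igf1r the log2 ratio to GelMA was -1.06 and that to TCP -0.91, and for Igf2r they were -0.97 and -0.94. Igf2r therefore missed the 2-fold threshold narrowly in both comparisons, and Igf1r missed it in the comparison with TCP. The length and GC correction described further on ended the call of Igf1r, with ratios to GelMA of -0.16 for Igf1r and -0.26 for Igf2r. Among all genes tested, Igf1r had the 244th lowest ratio against GelMA and Igf2r the 506th lowest against TCP.

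The receptors kept a nearly constant proportion to each other. In TPM, Igf2r exceeded Igf1r 6.31-fold on TCP, 5.82-fold on GelMA and 6.28-fold on GelMA-PSS. Igf2 relative to Igf2r, its clearance receptor, stood at 1.33 on TCP, 1.54 on GelMA and 3.09 on GelMA-PSS in TPM. Such proportions within a library do not depend on the scaling between libraries, but they do carry any dependence of the counts on transcript length, which is described further on.

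Igfbp2 encodes a binding protein with a preference for IGF2, and lies on chromosome 1 from 72824503 to 72852474. It had 17472 counts on TCP, 21716 on GelMA and 108005 on GelMA-PSS, or a CPM of 143 (interval 141 to 146), 239 (236 to 242) and 596 (593 to 599.8). The 3 intervals do not overlap, and GelMA itself stood 1.67-fold above TCP. Igfbp2 moved from the 1346th place by CPM on TCP to the 660th on GelMA and the 261st on GelMA-PSS. Its log2 ratio was 1.32 against GelMA, the 53rd highest of 13169, and 2.05 against TCP, the 30th highest. In TPM without TMM factors the ratio to GelMA was 0.85, under the threshold, and that to TCP 1.63. The fibroblast-associated marker Ly6a had log2 ratios of CPM + 1 of 1.31 and 1.85 in these comparisons. The length and GC correction described further on took them to 0.74 and 1.38, and those of Igfbp2 to 1.06 and 1.87. Of the 4 markers in that list, 1 was higher and 1 lower on GelMA-PSS than in both controls, and the part of such cells in the Igfbp2 values was not tested.

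Igfbp5, which encodes a matrix-associated binding protein that muscle cells induce on differentiation, is the neighbour of Igfbp2. It lies on chromosome 1 from 72857932 to 72874884 on the minus strand, 5457 bases beyond the end of Igfbp2, so that the genes run toward each other. Its CPM was 1502 on TCP, 1959 on GelMA and 1243 on GelMA-PSS, the highest among the members in each library. The GelMA-PSS level was lower than both controls, at 0.634 times GelMA and 0.827 times TCP, although the length and GC correction described further on moved its log2 ratio to GelMA from -0.66 to -0.26 and that to TCP from -0.27 to 0.03. Against GelMA these adjacent genes thus had log2 ratios of opposite sign with and without the correction, and against TCP only without it.

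The 250 bases before a RefSeq start of 4 members are shown, in the 5′ to 3′ direction of the gene on GRCm38.p6. They are Igfbp2, which was higher on GelMA-PSS, its neighbour Igfbp5, and the receptor pair that stood lower together. Capitals mark E-boxes, the motif CANNTG (its own reverse complement), a broad class of element of which MyoD and related factors bind some forms. The form CAGCTG has 0 copies in each window shown, and occurs in 13.0% of 32851 such windows of RefSeq. The Igf1 window, which is not shown, has 1 copy. Which factor binds a marked site was not tested.
Igfbp2 (chr1:72824230-72824479, plus strand): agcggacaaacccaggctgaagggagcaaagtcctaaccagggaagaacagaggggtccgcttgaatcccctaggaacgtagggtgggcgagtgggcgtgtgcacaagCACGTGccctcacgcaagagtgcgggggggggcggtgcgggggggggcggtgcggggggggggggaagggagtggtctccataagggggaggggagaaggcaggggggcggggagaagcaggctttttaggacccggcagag
Igfbp5 (chr1:72874866-72875115, minus strand): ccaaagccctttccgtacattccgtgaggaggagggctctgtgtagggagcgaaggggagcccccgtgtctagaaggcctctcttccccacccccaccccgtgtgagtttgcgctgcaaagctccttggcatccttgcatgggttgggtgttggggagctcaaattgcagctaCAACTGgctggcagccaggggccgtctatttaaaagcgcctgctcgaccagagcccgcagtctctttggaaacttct
Igf1r (chr7:67952007-67952256, plus strand): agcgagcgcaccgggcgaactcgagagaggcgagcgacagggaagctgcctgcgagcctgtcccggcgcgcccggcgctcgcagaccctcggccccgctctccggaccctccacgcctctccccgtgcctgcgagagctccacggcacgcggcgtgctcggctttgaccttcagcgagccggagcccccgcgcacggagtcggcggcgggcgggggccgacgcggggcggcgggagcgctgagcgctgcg
Igf2r (chr17:12769707-12769956, minus strand): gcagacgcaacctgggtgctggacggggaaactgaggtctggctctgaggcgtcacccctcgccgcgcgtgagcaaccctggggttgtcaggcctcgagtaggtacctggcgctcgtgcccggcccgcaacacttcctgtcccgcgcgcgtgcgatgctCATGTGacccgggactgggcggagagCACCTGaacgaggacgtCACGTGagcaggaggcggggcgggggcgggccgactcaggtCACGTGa

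These windows differ in make-up. The Igfbp2 window shown holds 1 E-box, starting at position -142 from the start site, and 3 copies of the GC box GGGCGG, counted on both strands. RefSeq gives a second start for Igfbp2, whose window (chr1:72825137-72825386) has 1 E-box at position -55, 0 GC boxes and a GC content of 56.4%. The Igfbp5 window has 1 E-box, at position -77, and 0 GC boxes. The Igf1r window has 0 E-boxes, 2 GC boxes, 42 CpG dinucleotides and a GC content of 77.6%, and the Igf2r window has 4 E-boxes, 3 GC boxes, 27 CpG dinucleotides and a GC content of 69.2%. Over 32851 such windows of RefSeq, the medians were 6 CpG dinucleotides and a GC content of 52.4%. An E-box occurs in 66.2% and a GC box in 32.7% of those windows, so that a match in a single window is a description of its letters and no more. GC-rich windows were not particular to the receptors, since the Igfbp2 window shown has a GC content of 67.2% and those of Igfbp3, Igfbp4 and Igfbp7 have 73.2%, 69.2% and 74%.

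Igfbp3, on chromosome 11 from 7206086 to 7213923, was the least abundant binding protein gene of the 6. Its CPM was 9.65 (interval 9.11 to 10.2) on TCP, 6.21 (5.71 to 6.74) on GelMA and 3.86 (3.58 to 4.16) on GelMA-PSS. The 3 libraries did not overlap in their intervals and followed the reverse order to Igfbp2. The log2 ratio was -1.13 against TCP, past the threshold, and -0.57 against GelMA. Between the controls it was -0.56, so that the step from TCP to GelMA was of about the same size as the step from GelMA to GelMA-PSS.

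Igfbp4, on chromosome 11 from 99041244 to 99054392, encodes a binding protein that inhibits IGF action until it is cleaved by pappalysin. It had a CPM of 82.4 on TCP, 111.6 on GelMA and 112.0 on GelMA-PSS, and the intervals of the hydrogels overlap. Igfbp4 and Igf2 thus shared an order in CPM in which the hydrogels lay together above TCP. In TPM this order was not kept, and GelMA-PSS lay nearer to TCP than to GelMA. Igfbp4 had a TPM of 43.1 on TCP, 60.6 on GelMA and 43.9 on GelMA-PSS, and Igf2 had 78.8, 96.8 and 71.4.

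Igfbp6, on chromosome 15 from 102144362 to 102149511, encodes a binding protein that prefers IGF2. Its CPM was 92.6 on TCP, 82.7 on GelMA and 115 on GelMA-PSS. Igfbp7 spans 77349240 to 77408041 of chromosome 5, and its CPM was 119 on TCP, 113 on GelMA and 139 on GelMA-PSS. Both genes were highest on GelMA-PSS and lowest on GelMA, at no more than 1.39-fold between any pair of libraries, and in TPM both were highest on TCP.

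**Figure D2:**
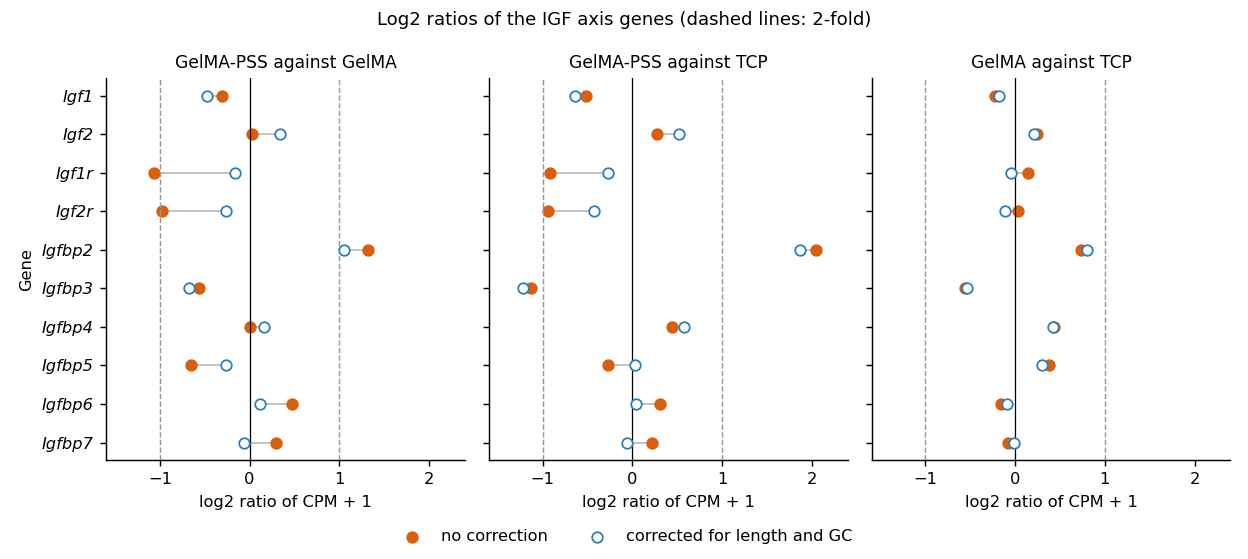
Log2 ratio of CPM + 1 for each gene in the 3 comparisons, without correction (filled) and after a loess correction for transcript length and GC content (open), with dashed lines at 2-fold. Igfbp2 stays beyond the line against both controls, while Igf1r moves from -1.06 to -0.16 against GelMA and Igf2r from -0.97 to -0.26.

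The ratios of GelMA-PSS declined with transcript length across all genes, and the members were set beside genes of their own length. Of 13059 genes tested with a known length, divided into 10 bins from shortest to longest, the median log2 ratio to GelMA was 0.58 in bin 1 and -0.62 in bin 10. The Igf1r transcript has 11409 bases, of which 7270 are 3′ untranslated, and the Igf2r transcript has 8887, so that both fall in bin 10. There the quartiles of the ratio were -0.86 and -0.37 against GelMA and -0.74 and -0.17 against TCP, and both receptor genes lay below the lower quartile in each comparison. After the loess correction the ratios to TCP were -0.27 for Igf1r and -0.42 for Igf2r. Both receptors thus stood low within bin 10, but by less than beside all genes. The median length in that bin was 7801.5 bases, so that both transcripts are longer than its typical member. Among 13059 corrected ratios, Igf1r had the 3625th lowest against GelMA and the 3069th lowest against TCP. For Igf2r the places were 2538 and 1908.

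The Igfbp2 transcript, with 1307 bases, belongs to bin 2, where the upper quartile was 0.57 against GelMA and 0.55 against TCP. Igfbp2 lay above it in each, and its corrected ratios were 1.06 and 1.87. Igfbp3, with 2421 bases, lay below the lower quartile of bin 4 in all 3 comparisons, and its corrected ratios were -0.68 against GelMA and -1.22 against TCP. For Igfbp6 and Igfbp7, with 1112 and 1200 bases, every ratio lay within the quartiles of its bin, and the corrected ratios ran from -0.09 to 0.12. Igf2, with 4722 bases, lay above the upper quartile of bin 8 in all 3 comparisons, and its corrected ratios were 0.34 against GelMA and 0.52 against TCP.

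The result for Igf1 turned on which transcript was used. The transcript with the longest coding sequence has 2292 bases and gave a corrected log2 ratio of -0.47 to GelMA and -0.64 to TCP. With the longest transcript of each gene, which has 7052 bases for Igf1, an alternative added after the data were seen, the ratios were 0.02 and -0.30. The counts per symbol do not show which Igf1 transcript these cells made. For the other 9 members both choices gave the same transcript length.

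**Figure D3:**
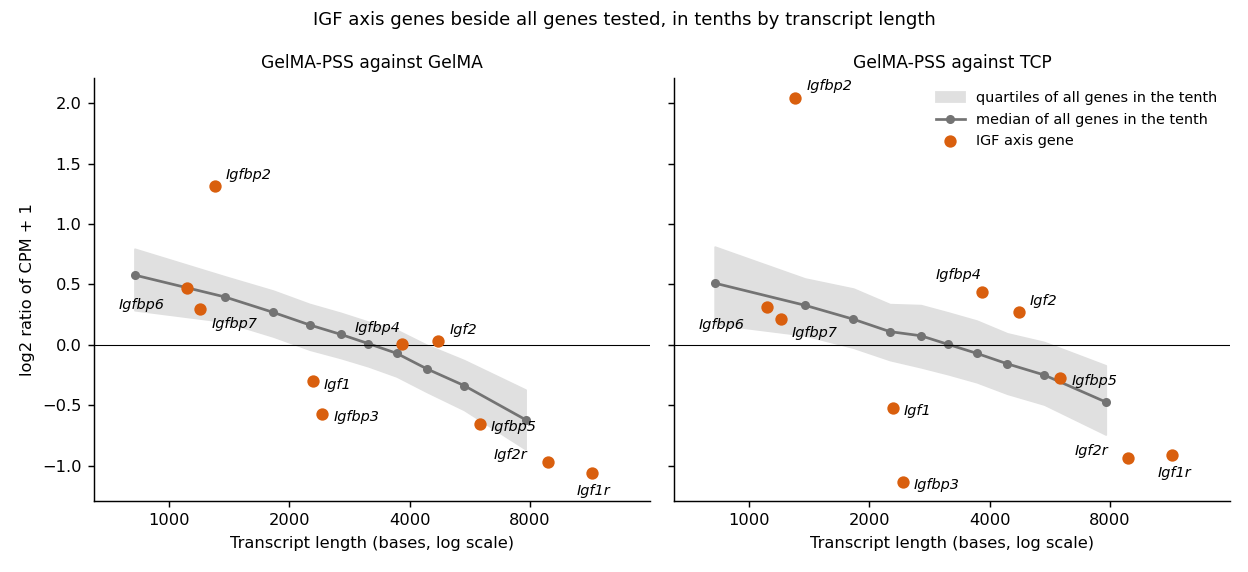
Log2 ratio of GelMA-PSS against GelMA (left) and TCP (right) plotted against transcript length (log scale), with the median and quartiles of all genes tested in 10 bins by length. Igfbp2 lies above the band of its bin, Igf1, Igfbp3, Igf1r and Igf2r lie below theirs, and Igfbp6 and Igfbp7 fall inside.

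The make-up of the binding protein transcripts was compared within each library, as the share of each gene in the summed TPM of the 6 genes. Igfbp5 had the largest share on TCP and GelMA, with 44.0% and 46.0%, and 22.7% on GelMA-PSS. Igfbp2 had 19.3% on TCP, 25.8% on GelMA and 49.9% on GelMA-PSS. The leading gene therefore differed, with Igfbp5 first on both controls and Igfbp2 first on GelMA-PSS. The TPM of Igfbp5 relative to Igfbp2 was 2.28, 1.78 and 0.454 in the order TCP, GelMA and GelMA-PSS. In counts, without division by length, Igfbp5 still exceeded Igfbp2 in every library, with ratios of 10.5, 8.20 and 2.08.

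The remaining binding proteins held smaller shares. Igfbp7 had 17.5%, 13.3% and 12.7% and Igfbp6 had 14.7%, 10.5% and 11.3% on TCP, GelMA and GelMA-PSS, and Igfbp4 and Igfbp3 stayed at or below 4.11% and 0.702%. The summed TPM of the 6 genes was 1139 on TCP, 1474 on GelMA and 1372 on GelMA-PSS, against 81.2, 98.7 and 72.5 for the ligands together. Binding protein transcripts thus exceeded ligand transcripts 14.0-fold, 14.9-fold and 18.9-fold. These shares and proportions carry the dependence of the counts on transcript length described above. The median log2 ratio to GelMA was 0.40 in bin 2 (Igfbp2 and Igfbp7), -0.20 in bin 8 (Igf2) and -0.34 in bin 9 (Igfbp5). How much of the differences between libraries it accounts for was not tested.

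**Figure D4:**
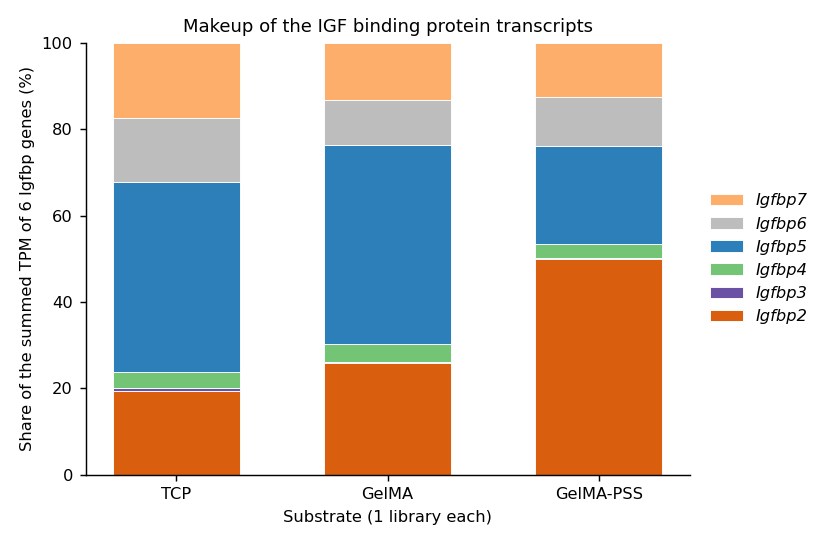
Share (%) of each of the 6 Igfbp genes in their summed TPM, stacked to 100 for the TCP, GelMA and GelMA-PSS libraries. Igfbp2 takes 19.3%, 25.8% and 49.9% and Igfbp5 44.0%, 46.0% and 22.7% in that order.

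Beyond the members, 29 other genes of the axis were examined. They covered insulin, the insulin receptors, adaptors, receptor inhibitors, other binding proteins, proteases of the binding proteins and inhibitors of such proteases. Also in the list were H19, described above, and genes for proteins that bind Igf2 mRNA. Of the 29 genes, 20 had a CPM of at least 1 in a library. Against GelMA, 0 were called higher and 0 lower, beside 1.77% and 2.33% of all genes. Against TCP 1 of the 20 was called higher and 1 lower, beside 3.72% and 3.13%, which at this list size is near the background. Htra1, a secreted protease that can cleave IGF binding proteins, had a CPM of 47.6 on TCP, 66.5 on GelMA and 98.3 on GelMA-PSS, with a log2 ratio of 1.03 against TCP. Irs2, an adaptor downstream of the IGF and insulin receptors, had a CPM of 7.10, 5.87 and 2.93 in the same order, with a log2 ratio of -1.04 against TCP. Neither remained past 2-fold after the length and GC correction, with corrected ratios of 0.94 and -0.65. Against both controls at 1.5-fold, 3 of the 20 were higher (Ins2, Grb14 and Socs2) and 3 lower (Insr, Irs1 and Irs2), beside 8.08% and 7.18% of all genes. None of these 6 genes passed 1.5-fold against both controls after the length and GC correction. Their corrected log2 ratios to GelMA were 0.29 for Ins2, 0.43 for Grb14, 0.51 for Socs2, -0.10 for Insr, -0.28 for Irs2 and, with the sign turned, 0.10 for Irs1.

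Among all genes tested, the profiles nearest to Igf1 over the 3 libraries were those of Kbtbd8, Sec14l1 and Flii, at Euclidean distances of 0.0037 to 0.010 between centred log2(CPM + 1) values. Nearest to Igfbp2, the member with the largest ratio to its nearer control, were Ly6f, 9030619P08Rik and Id3, at distances of 0.027 to 0.072. Their transcripts have 877, 857 and 1278 bases, short like the 1307 of Igfbp2, and the profiles were not corrected for length. Ly6f had a CPM of 25.3 on TCP, 41.6 on GelMA and 107 on GelMA-PSS, and Id3, which encodes an inhibitor of MyoD-type factors, had 15.2, 26.0 and 62.1. With 3 libraries such likeness describes only a shared order and size of steps in log2(CPM + 1). That scale shrinks the steps of low genes such as Igf1, so that in CPM the sizes differed. Igf1 had a CPM of 2.70 on TCP, 2.18 on GelMA and 1.58 on GelMA-PSS. Kbtbd8 had 1.43, 1.08 and 0.690 in the same order, and Sec14l1 had 214, 182 and 148.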

How the data were processed

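The files that the authors deposited hold raw counts by gene symbol, 1 file per library, from paired-end reads described in the methods as strand-specific. The methods name a TruSeq kit and the labels a SMARTER mRNA kit, so that the library chemistry, which bears on strand and on coverage along a transcript, is not settled. Per the labels, the processing notes name TopHat, edgeR, mm10 and hg19 without a role. The counting tool, annotation and strand setting are not given in the sources used here. Lines sharing a symbol (35 of 23238 symbols) were summed. Counts were scaled to CPM with TMM factors (edgeR 4.0.16), and genes reaching a CPM of 1 in any library were compared on log2(CPM + 1), which understates differences of low genes. The methods' FPKM values were not used here. With 1 library per substrate there was no test, so calls are fold thresholds. Wilson and exact binomial intervals (scipy 1.17.1, 95%) cover counting error only, and would be too narrow had each mate been counted. A floor of 3 counts equals a CPM of 0.0166 to 0.0330. Transcript lengths, GC content and positions came from GENCODE vM21 (GRCm38), by symbol for 22197 genes and by an older symbol for 667. The correction used 2 successive loess fits (span 0.3, statsmodels 0.14.6). Promoter windows came from RefSeq (GRCm38.p6), where all 10 members matched.

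Airn lies antisense to Igf2r, Igf2os to Igf2 and Polr2b to Igfbp7. Without a stated strand setting, reads of such partners cannot be told apart, and Polr2b had counts of 9347 to 18942 beside 10291 to 25174 for Igfbp7. Gm49394 overlaps Igf2 on the same strand.

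On simulated Poisson counts, 98% of 200 genes changed 4-fold were recovered against both controls among 12883 genes, and 0 unchanged genes were called. That simulation held counting error only, without variation between cultures or a trend with transcript length. Its 4-fold changes were larger than most member ratios. It therefore checks the calculation and gives no error rate for the calls. The members, the gene lists and the E-box and GC box motifs were chosen with earlier results of these data known. All members were named, and of the other axis genes those past 2-fold in a comparison. The planned search for heparin-binding patterns in the proteins was not run. Alternatives covered the fold threshold, pseudocount, filter, scaling, length and GC correction and repeated symbols.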

Additional observations from a re-analysis of the deposited data

How the results depend on the processing

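No paired analysis was possible because the results come from no test and each substrate has 1 library. At 1.5-fold, 4 members were called against GelMA, 4 against TCP, 1 between the controls and 3 against both controls (Igfbp2, Igf1r and Igf2r). Of the other axis genes, 6, 9, 1 and 6 were called in that order. The shares of all genes were 21.8%, 24.7% and 5.62%, and against both controls 8.08% higher and 7.18% lower. Plain CPM called 3 members against GelMA, with Igf2r added at a log2 ratio of -1.12. It called 4 members against TCP and 3 against both controls, and 1 other axis gene against TCP. Among 13163 genes, 626 were called against GelMA, 914 against TCP, and 97 higher and 261 lower against both controls. The members' medians were -0.27 against GelMA and -0.14 against TCP. TPM without TMM factors called 1082 of 12730 genes against GelMA and 1201 against TCP. Of the members it called 3 lower against GelMA, namely Igf1r, Igf2r and Igfbp5, the last at a log2 ratio of -1.12. Against TCP it called 4 members. Against both controls it called 2, which were Igf1r and Igf2r, since Igfbp2 had a log2 ratio of 0.85 against GelMA. It also called 2 other axis genes against GelMA, 1 against TCP and 1 against both, and gave members' medians of -0.50, -0.44 and, for GelMA against TCP, 0.14. TPM moved the median of all genes against GelMA to -0.37 and the calls against both controls to 31 higher and 627 lower, from 180 and 153. The length and GC correction left 1 member called against GelMA, beside 244 of 13059 genes, and 0 other axis genes against TCP, beside 578. The members' medians were -0.11 against GelMA and -0.028 for GelMA against TCP. Among all genes, 57 were called higher and 82 lower against both controls. The same correction with the longest transcripts, added after the data were seen, gave 1 member and 0 other axis genes, with medians of -0.019 and -0.026. A pseudocount of 0.25 gave a members' median of -0.20 against GelMA and raised all calls against both controls from 333 to 477. Median-of-ratios factors, no filter and the first line of a symbol kept every count of members called. Without division by length, Igfbp2 held 7.36%, 9.51% and 27.0% and Igfbp5 77.0%, 78.0% and 56.3% of the binding protein counts on TCP, GelMA and GelMA-PSS. Igfbp2, Igfbp3 and Igf1r and Igf2r on GelMA-PSS kept their sign under all 7 alternatives that recomputed single ratios. Igf2 and Igfbp4 against GelMA were negative with plain CPM and TPM, and Igf2 and Igfbp6 against TCP were negative with TPM. Igfbp7 against both controls was negative with TPM and with both length corrections, and Igfbp5 against TCP was 0.03 with the first of these. Igf1r and Igf2r for GelMA against TCP were negative with both length corrections, and Igf1 against GelMA was 0.02 with the second. Igf1 has few counts, so that its intervals are the widest.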
